A study of Mus musculus with 12 samples.

Results

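Il10 encodes interleukin-10, a cytokine that restrains immune responses, and 5 transcription factor genes linked to its production in CD4+ T cells were followed with it: Prdm1, Maf, Nfil3, Irf4 and Batf. These 6 genes were chosen by name, with earlier results of these data known. Each is measured by 1 probe set, and all 6 were found among the 19938 genes of the arrays. The arrays held RNA of donor CD4+ T cells sorted from spleen and lymph node on day 2 (48 hr) of a graft-versus-host reaction, gated on 2 or more cell divisions. In all groups, CFSE-stained spleen cells of C57Bl/6 donors had been injected into B6D2F1 hosts, and the mice were 10 to 12 weeks old. Hosts received intraperitoneal TCDD (15 µg/kg, day 0), Cl-BBQ (2 mg/kg, given on day 0 and again on day 1) or vehicle (day 0 and day 1), with 4 mice and 4 arrays per group. Both compounds are ligands of AhR, the aryl hydrocarbon receptor, which small molecules switch on as a transcription factor; TCDD is a dioxin that the body clears slowly. The vehicle schedule was that of Cl-BBQ, so TCDD and vehicle hosts differed in the number of injections as well. The model reads the first days of an acute response in divided cells, and cells that had not divided were left out by the sort.

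Type 1 regulatory (Tr1) cells are CD4+ T cells that make interleukin-10 without relying on Foxp3, the factor that defines classical regulatory T cells. In T cells, AhR and the factor c-Maf, the product of Maf, are known to act together on the Il10 gene after interleukin-27 signalling. Blimp-1, the product of Prdm1, and the bZIP protein NFIL3 are known to promote Il10 expression, while BATF and IRF4 bind composite DNA elements together and open chromatin early after T cell activation.

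With TCDD, Il10, Prdm1 and Nfil3 rose and the other 3 genes were not called. Prdm1 was 2.33-fold, Il10 2.11-fold and Nfil3 1.30-fold higher than with vehicle. With Cl-BBQ none of the 6 genes was called, although the Prdm1 mean was 1.63 times that of vehicle and 3 of 4 arrays stood above every vehicle array in both Il10 and Prdm1. Cl-BBQ replicate 4 lay near the vehicle arrays in both genes. Values are deposited log2 intensities, on which a difference of 1 is a doubling, and a gene was called at an adjusted p under 0.05 over all genes in limma. The 3 calls with TCDD were all increases, where 1.24% of all genes were called, 0.873% higher and 0.366% lower. The median log2 difference of the 6 genes was 0.31 with TCDD and 0.20 with Cl-BBQ, against 0.00 and 0.01 over all genes, and both comparisons share the vehicle arrays. Because earlier results were known when the 6 genes were chosen, values over all genes are set beside them as a description.

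**Figure D1:**
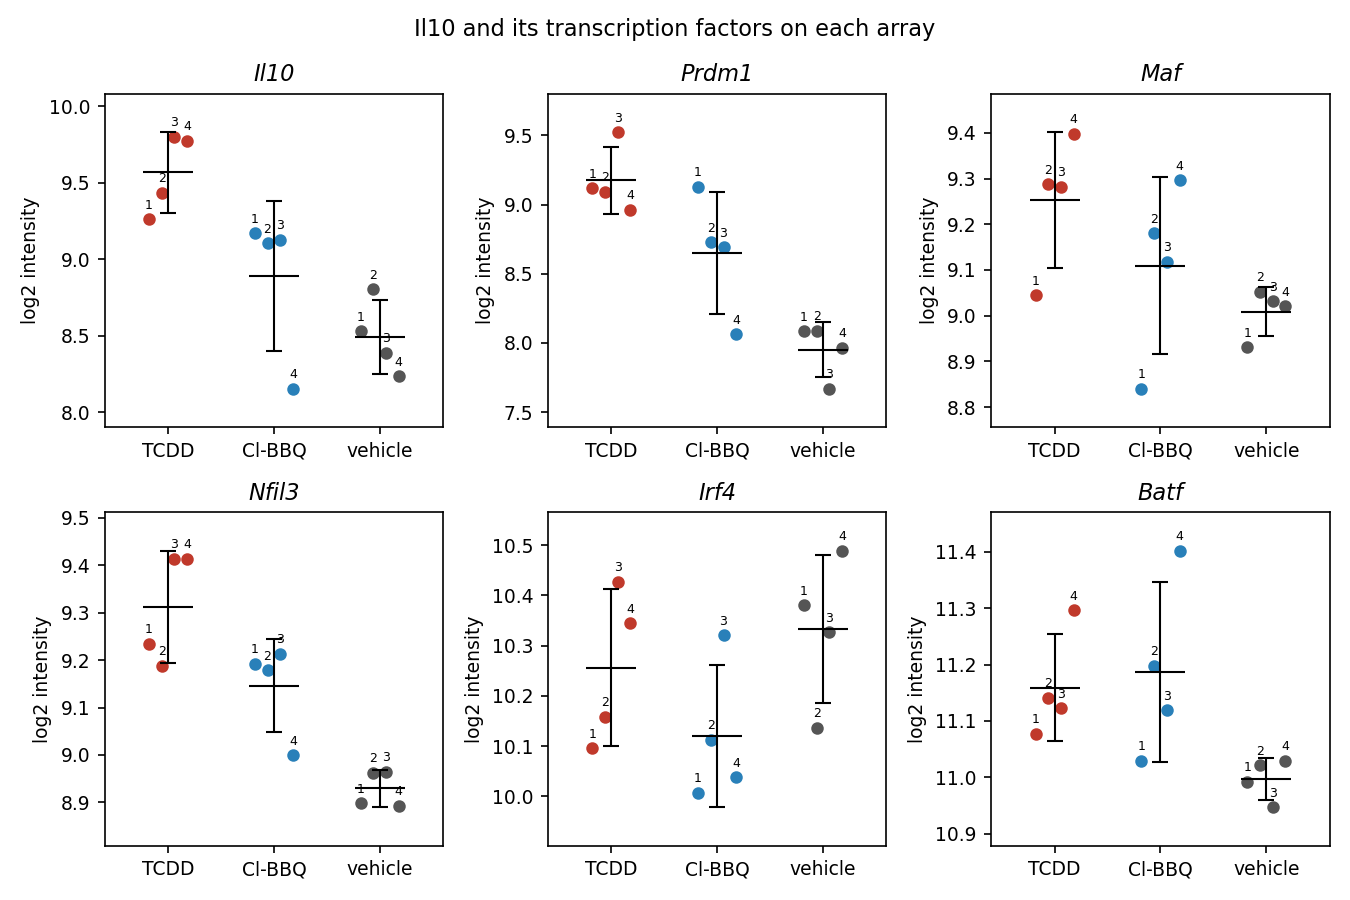
Log2 intensity (y axis) of the 6 genes on each array, with replicate numbers beside the points, bars at the group mean and whiskers of 1 SD (n = 4 per group). All TCDD arrays lie above all vehicle arrays in Il10, Prdm1, Nfil3 and Batf, and Cl-BBQ replicate 4 is the lowest of its group in Il10, Prdm1 and Nfil3 and the highest in Maf and Batf.

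Il10 (probe set 10349603) lies on chromosome 1 from 131019845 to 131024970 (GRCm38.p6, RefSeq). Its log2 intensity was 9.26, 9.44, 9.80 and 9.78 on the TCDD arrays. On the Cl-BBQ arrays it was 9.17, 9.11, 9.13 and 8.15. On the vehicle arrays it was 8.53, 8.81, 8.39 and 8.24. All TCDD arrays were thus above all Cl-BBQ and all vehicle arrays, while the Cl-BBQ arrays split into 3 above every vehicle array and 1 below every vehicle array. The TCDD mean of 9.57 ± 0.26 exceeded the vehicle mean of 8.49 ± 0.24 by 1.08 on the log2 scale (SD, n = 4; 95% interval 0.66 to 1.5; adjusted p = 0.00797), which placed Il10 at position 29 by size among the 174 genes called higher. The call was lost when all probe sets of the array were tested singly (adjusted p = 0.0575), with the same difference. The Cl-BBQ mean was 8.89 ± 0.49, 0.40 above vehicle (interval −0.02 to 0.82; adjusted p = 0.651). Without Cl-BBQ replicate 4 that difference was 0.64 (adjusted p = 0.12).

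Prdm1 (probe set 10368970) lies on chromosome 10 from 44437174 to 44528558. Its log2 intensity was 9.12, 9.09, 9.53 and 8.96 on the TCDD arrays. On the Cl-BBQ arrays it was 9.13, 8.73, 8.69 and 8.06, and on the vehicle arrays 8.08, 8.09, 7.67 and 7.97. The TCDD and vehicle groups did not overlap, and Cl-BBQ ran from the vehicle range up into the TCDD range. TCDD exceeded vehicle by 1.22 (9.17 ± 0.24 against 7.95 ± 0.20; interval 0.85 to 1.6; adjusted p = 0.00122), the largest of the 6 differences. This call was kept in all 17 alternative fits tried. Cl-BBQ averaged 8.65 ± 0.44 and exceeded vehicle by 0.70 (interval 0.33 to 1.08; adjusted p = 0.159). Without Cl-BBQ replicate 4 the difference was 0.90 and passed the test (adjusted p = 0.0292), so whether Prdm1 is called with Cl-BBQ rests on that array.

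Nfil3 (probe set 10409278) lies on chromosome 13 from 52967209 to 52982878. Its values were 9.23, 9.19, 9.41 and 9.41 with TCDD, 9.19, 9.18, 9.21 and 9.0 with Cl-BBQ, and 8.90, 8.96, 8.96 and 8.89 with vehicle. Every array of either compound was above every vehicle array, and the vehicle arrays spanned only 0.07. TCDD exceeded vehicle by 0.38 (9.31 ± 0.12 against 8.93 ± 0.04; interval 0.22 to 0.54; adjusted p = 0.0145). This call was the least stable of the 3: it was lost after median centring of the arrays (adjusted p = 0.0536) and without TCDD replicate 3, TCDD replicate 4, vehicle replicate 1 or vehicle replicate 4 (adjusted p = 0.0509 to 0.0836). Cl-BBQ averaged 9.15 ± 0.10, 0.22 above vehicle (interval 0.06 to 0.38; adjusted p = 0.445).

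The promoter windows of Prdm1 and Nfil3, the called regulators, are shown because AhR binds the core GCGTG of xenobiotic response elements, and matches to it on either strand (GCGTG or CACGC) are in capitals. Each window holds 250 bases before and 50 after the start site that the RefSeq promoter table uses, on the minus strand of GRCm38.p6, read 5′ to 3′, at chr10:44458699-44458998 and chr13:52980990-52981289. That site lies 69.8 kb inside the Prdm1 gene record and 1.84 kb inside the Nfil3 record given above, so other, more upstream starts of these genes are not covered. The sites of Irf4 and Batf are the outer ends of their records.
Prdm1: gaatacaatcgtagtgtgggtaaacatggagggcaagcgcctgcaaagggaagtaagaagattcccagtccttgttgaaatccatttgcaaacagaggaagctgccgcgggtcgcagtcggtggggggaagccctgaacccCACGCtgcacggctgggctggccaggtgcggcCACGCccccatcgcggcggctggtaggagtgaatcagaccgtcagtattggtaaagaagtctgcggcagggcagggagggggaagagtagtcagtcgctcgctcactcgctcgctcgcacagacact
Nfil3: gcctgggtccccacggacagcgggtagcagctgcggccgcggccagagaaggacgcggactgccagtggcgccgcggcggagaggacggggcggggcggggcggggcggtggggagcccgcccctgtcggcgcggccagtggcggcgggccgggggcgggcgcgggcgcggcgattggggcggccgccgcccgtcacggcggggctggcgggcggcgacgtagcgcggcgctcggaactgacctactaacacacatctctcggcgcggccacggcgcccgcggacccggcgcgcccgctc
Prdm1 held 2 matches, starting 109 and 77 bases before the table's start site, and Nfil3 held 0. Irf4 held 1, starting 80 bases before its start site, and Batf held 0. A match was present in 32.4% of the 32851 windows of this length in the RefSeq table, and 11.1% held at least 2. The AP-1 letters TGANTCA, which read the same on both strands, occurred once in the Prdm1 window, 48 bases before the same site, and in none of the other 3 windows, against 7.81% of all windows. The letters GTGAAAG, searched on both strands as a Blimp-1 motif, matched once in the Batf window and in none of the other 3 (4.24% of all windows). The letters TTANGTAA for NFIL3, TGCTGA for Maf and the interferon-stimulated response element (ISRE), each on both strands, had no match in the 4 windows (2.32%, 19.5% and 3.44% of all windows). None of the matches overlapped another. A match is a string of letters and not a shown binding site. Promoter sequences were matched for 4 of the 6 genes.

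Maf and Batf, both bZIP factor genes, were slightly brighter with both compounds without passing the test. Maf (probe set 10581992, chromosome 8 from 115703253 to 115706894) was at 9.05, 9.29, 9.28 and 9.40 with TCDD, 8.84, 9.18, 9.12 and 9.30 with Cl-BBQ, and 8.93, 9.05, 9.03 and 9.02 with vehicle. TCDD replicate 1 fell within the vehicle range and Cl-BBQ replicate 1 below it, while the other 3 arrays of each compound were above all vehicle arrays. The log2 difference from vehicle was 0.24 with TCDD (interval 0.04 to 0.45; adjusted p = 0.425) and 0.10 with Cl-BBQ (interval −0.10 to 0.30; adjusted p = 0.835).

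Batf (probe set 10397359, chromosome 12 from 85686720 to 85709087) was at 11.08, 11.14, 11.12 and 11.30 with TCDD, 11.03, 11.20, 11.12 and 11.40 with Cl-BBQ, and 10.99, 11.02, 10.95 and 11.03 with vehicle. Neither compound's arrays overlapped with vehicle, though Cl-BBQ replicate 1 and vehicle replicate 4 both round to 11.03. The differences were small, 0.16 with TCDD (interval 0.01 to 0.31; adjusted p = 0.513) and 0.19 with Cl-BBQ (interval 0.04 to 0.34; adjusted p = 0.506). With TCDD, 4 of the 6 genes had groups that did not overlap, all 4 higher, where 5.8% of all genes did so and 3.15% were higher. With Cl-BBQ 2 of 6 did, both higher, where 3.85% of all genes did so and 2.27% were higher.

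Irf4, whose product pairs with BATF on DNA, was the only one of the 6 with a mean below vehicle. Irf4 (probe set 10404389, chromosome 13 from 30749233 to 30766981) was at 10.10, 10.16, 10.43 and 10.34 with TCDD, 10.01, 10.11, 10.32 and 10.04 with Cl-BBQ, and 10.38, 10.14, 10.33 and 10.49 with vehicle. The 3 groups overlapped. The difference from vehicle was −0.08 with TCDD (interval −0.28 to 0.12; adjusted p = 0.916) and −0.21 with Cl-BBQ (interval −0.41 to −0.01; adjusted p = 0.598).

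**Figure D2:**
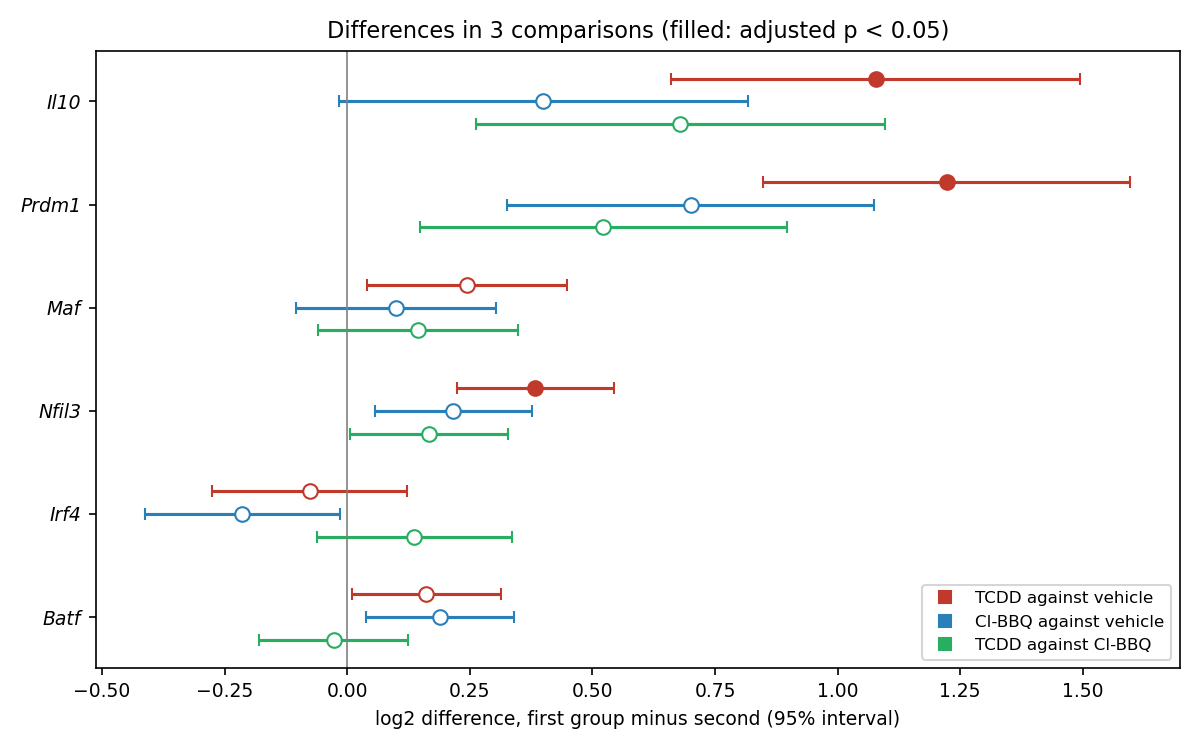
Log2 difference (x axis) with its 95% interval for the 6 genes in 3 comparisons, first-named group minus second, with filled points for calls. Only Il10, Prdm1 and Nfil3 with TCDD against vehicle are filled, at 1.08, 1.22 and 0.38.

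Under Cl-BBQ, 4 of the 6 genes had an unadjusted p under 0.05 from limma (Prdm1, Nfil3, Batf and Irf4) and 0 were called, where 7.91% of all genes were under that level and 0.196% were called, 0.145% higher and 0.0502% lower. With TCDD, 5 of 6 were under it, where all genes gave 8.69%. The order of the group means was TCDD, Cl-BBQ, vehicle for Il10, Prdm1, Nfil3 and Maf, with Cl-BBQ highest for Batf and vehicle highest for Irf4. The doses and schedules of the compounds differed, and the test between them compares the hosts as treated. TCDD exceeded Cl-BBQ by 0.68 in Il10 (9.57 ± 0.26 against 8.89 ± 0.49; interval 0.26 to 1.1), by 0.52 in Prdm1 (interval 0.15 to 0.90) and by 0.17 in Nfil3 (interval 0.01 to 0.33), each with an adjusted p of 1.00 in limma. Of the 6 genes 0 passed this test and 3 had an unadjusted p under 0.05, where all genes gave 0.015% and 2.99%. Il10 was the 1 gene of the 6 whose TCDD and Cl-BBQ arrays did not overlap, TCDD being higher, where 2.04% of all genes did not overlap and 1.24% were higher with TCDD. Without Cl-BBQ replicate 4 the Il10 difference was 0.43 and that of Prdm1 0.33, both over 1.5 times smaller. The difference was 0.14 for Maf (interval −0.06 to 0.35), 0.14 for Irf4 (interval −0.06 to 0.34) and −0.03 for Batf (interval −0.18 to 0.12).

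The arrays of Cl-BBQ hosts did not vary in one way over the 6 genes. Replicate 4 was below the mean of its 3 companions by 0.98 in Il10, by 0.78 in Prdm1, by 0.20 in Nfil3 and by 0.11 in Irf4, and above it by 0.25 in Maf and by 0.29 in Batf. Among all genes, it was the array set apart in its group for 1.28%, against 0.642% to 2.40% for the other 3 Cl-BBQ arrays by the same measure, Dixon's gap to the nearest array over the range of the group.

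**Figure D3:**
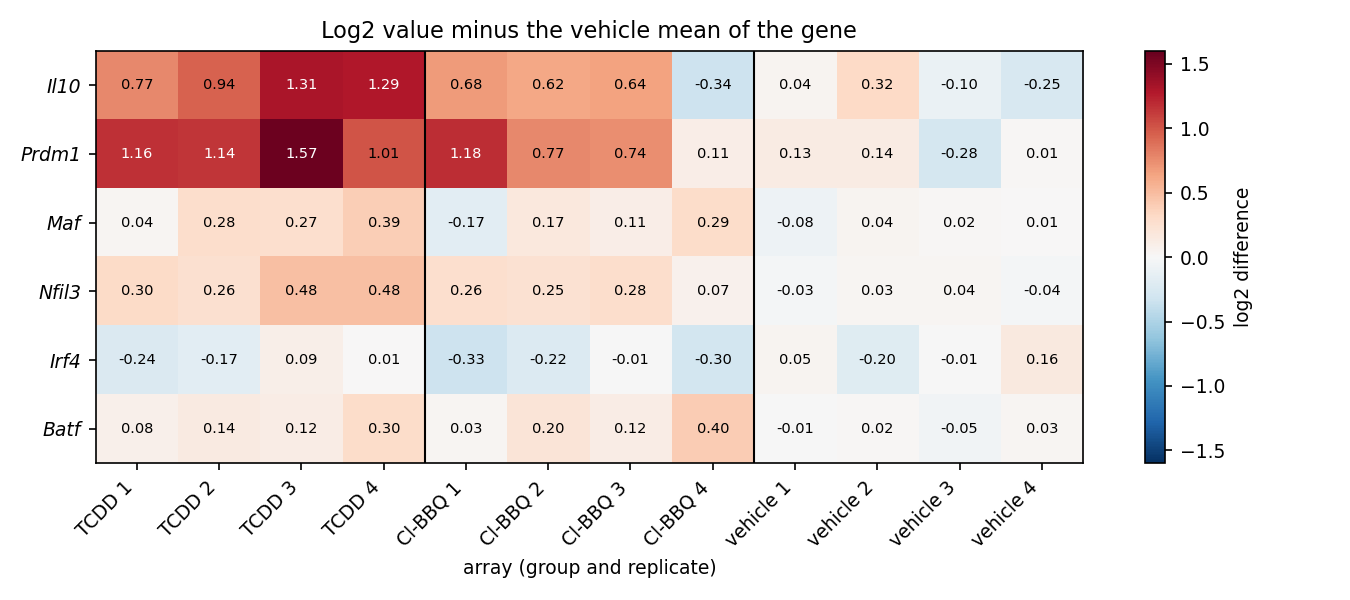
Log2 value of each gene (rows) on each array (columns, by group and replicate) minus that gene's vehicle mean, in numbers and colour. Il10, Prdm1, Nfil3, Maf and Batf are above 0 on all 4 TCDD arrays, and on Cl-BBQ replicate 4 Il10 is at −0.34 while Batf is at 0.40.

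Cyp1b1, a cytochrome P450 gene and a known direct AhR target, was set beside these genes and was chosen after its values were seen. Cyp1b1 was at 9.67, 9.92, 9.91 and 9.92 with TCDD, 8.24, 7.90, 5.93 and 7.89 with Cl-BBQ, and 6.25, 6.57, 6.31 and 6.32 with vehicle. The Cl-BBQ array without raised Cyp1b1 was replicate 3, whereas the one without raised Il10 was replicate 4. On replicate 3 Il10 stood at 9.13 and Prdm1 at 8.69, above all vehicle arrays, and on replicate 4 they stood at 8.15 and 8.06 with Cyp1b1 at 7.89. Without replicate 3, the Il10 difference of Cl-BBQ from vehicle was 0.32 and that of Prdm1 0.69, and neither was called (adjusted p = 0.714 and 0.259).

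**Figure D4:**
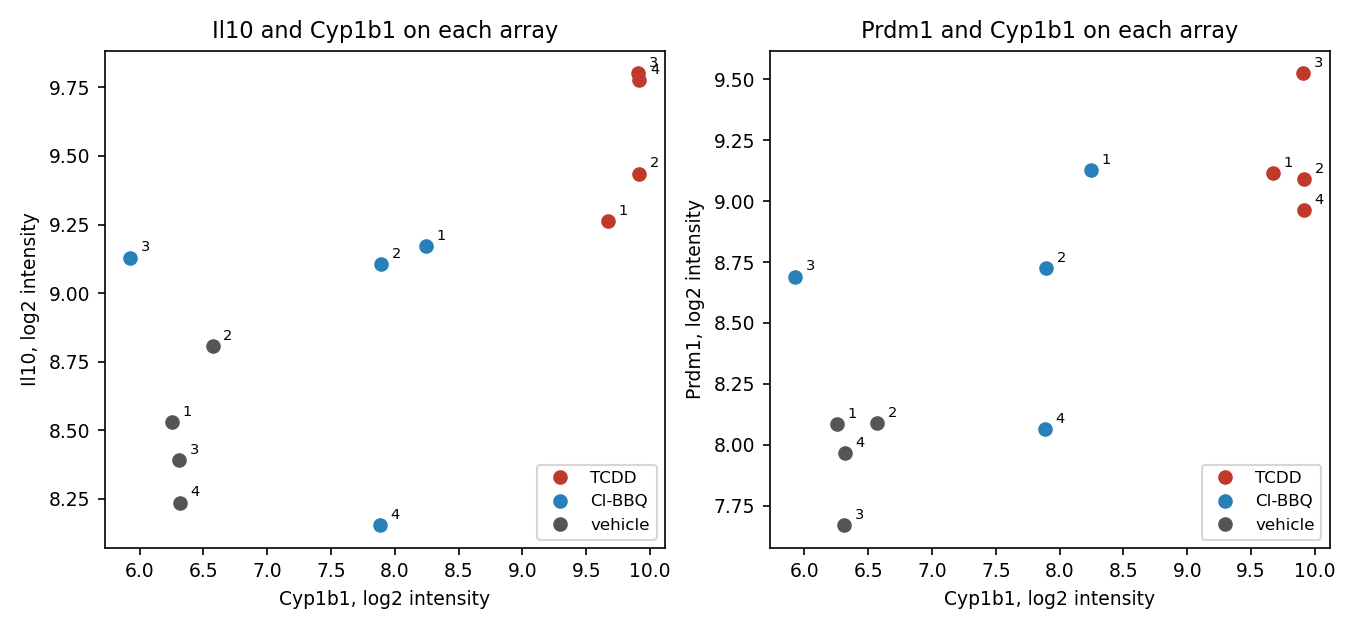
Il10 (left) and Prdm1 (right) against Cyp1b1 on the 12 arrays, all in log2 intensity, with replicate numbers beside the points. TCDD arrays lie at the upper right and vehicle arrays at the lower left, and Cl-BBQ replicates 3 and 4 lie off that line in opposite directions. In the Prdm1 panel Cl-BBQ replicate 1 also lies above that line (Prdm1 at 9.13, Cyp1b1 at 8.24).

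The genes whose profile over the 12 arrays lay closest to Il10 were Sytl2, Ifitm3, Prdm1, Emp1 and Fam20a. The measure was the mean absolute log2 difference after each gene was centred on its mean, and it was 0.196 to 0.200 for these genes, where a flat profile gives 0.467. Sytl2, a synaptotagmin-like protein gene of vesicle transport, was at 10.21 ± 0.31 with TCDD, 9.76 ± 0.16 with Cl-BBQ and 9.03 ± 0.31 with vehicle. It was at 9.71 on Cl-BBQ replicate 4 and so did not share the low value of Il10 there (8.15). Ifitm3 encodes an interferon-induced membrane protein and Fam20a a secreted pseudokinase. Of all genes, Prdm1 stood at position 3 by closeness to Il10, Nfil3 stood at position 80, Maf at 1304, Batf at 2952 and Irf4 at 15366, where Irf4 at 0.498 was farther than a flat profile. The measure depends on the size of a difference, so genes with smaller differences lie farther.

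Closest to Prdm1 were Ifi207, Cpox, Mlkl, Gcnt1 and Il10, at 0.140 to 0.197, where a flat profile gives 0.516. Ifi207, a PYHIN family gene, was at 7.92 ± 0.28 with TCDD, 7.36 ± 0.33 with Cl-BBQ and 6.81 ± 0.21 with vehicle, and like Prdm1 it was low on Cl-BBQ replicate 4 (7.00). Cpox encodes an enzyme of haem synthesis, Mlkl the effector of necroptosis and Gcnt1 an enzyme that branches O-glycans. The 8 genes other than Prdm1 and Il10 were picked for this likeness on the same arrays, which fixes their direction, so their calls are given as a description: all 8 were called higher with TCDD (adjusted p from 3.6e-05 to 0.0119 in limma), and Emp1 and Mlkl with Cl-BBQ (adjusted p = 0.0135 and 0.0335). Leaving out TCDD replicate 3 or vehicle replicate 1 ended the call of Gcnt1 with TCDD (adjusted p up to 0.0701). The calls with Cl-BBQ ended without Cl-BBQ replicate 2 or vehicle replicates 1 or 4 for both genes and without Cl-BBQ replicate 4 for Mlkl.

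Genes upstream of Il10 were mostly not called. Of 13 measured signal genes, Il12rb2 rose with both compounds (3.13-fold with TCDD, adjusted p = 0.000187; 2.22-fold with Cl-BBQ, adjusted p = 0.0243) and 12 were not called in either comparison. The call with Cl-BBQ was lost without Cl-BBQ replicate 2 or vehicle replicates 2, 3 or 4. Il12rb2 encodes a subunit of the receptor of interleukin-12, a cytokine that also supports Il10 expression in Th1 cells. Ahr itself was at 8.51 ± 0.14 with TCDD, 8.37 ± 0.09 with Cl-BBQ and 8.56 ± 0.12 with vehicle, and Il27ra, the interleukin-27 receptor gene, at 8.84 ± 0.15, 8.85 ± 0.33 and 8.80 ± 0.09. Il21, a cytokine that sustains Tr1 cells, was at 10.01 ± 0.26 with TCDD, 9.77 ± 0.21 with Cl-BBQ and 9.51 ± 0.38 with vehicle (adjusted p = 0.261 with TCDD). The list median was 0.06 with TCDD and 0.08 with Cl-BBQ. With each compound 5 of the 13 had an unadjusted p under 0.05 in limma, where all genes gave 8.69% with TCDD and 7.91% with Cl-BBQ. Of all genes, 1.24% were called with TCDD and 0.196% with Cl-BBQ.

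Among 19 other transcription factors linked to Tr1 cells, TCDD raised 3 and lowered 1, leaving 15 not called, and 0 were called with Cl-BBQ, where 5 had an unadjusted p under 0.05 in limma. Runx3, a factor of cytotoxic and Th1 programmes, was 1.32-fold higher (10.45 ± 0.04 against 10.06 ± 0.09; adjusted p = 0.00165). Gata3, the lead factor of Th2 cells, was 1.32-fold higher (adjusted p = 0.0159) and Id2, an inhibitor of E proteins, 1.41-fold higher (adjusted p = 0.0332). Eomes, a T-box factor described in some Tr1 cells, fell to 7.15 ± 0.21 with TCDD, against 7.80 ± 0.28 with vehicle (adjusted p = 0.018). Only Runx3 of these kept its call with each array left out in turn: Eomes lost it in 4, Gata3 in 5 and Id2 in 6 of 8 such fits, with adjusted p up to 0.0988, 0.0917 and 0.143. Those fits lacked TCDD replicates 3 or 4 or vehicle replicates 1 or 2 for Eomes, and TCDD replicates 2, 3 or 4 or vehicle replicates 1 or 3 for Gata3 and Id2, with vehicle replicate 4 in addition for Id2. The list median was 0.06 with TCDD and 0.04 with Cl-BBQ. With TCDD 6 of the 19 had an unadjusted p under 0.05 in limma. All genes gave 8.69% under that level with TCDD and 7.91% with Cl-BBQ, and 1.24% and 0.196% called.

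Of the relatives of Batf, Maf, Nfil3 and Irf4, 1 gene was called, Irf8. Of all genes, 1.24% were called with TCDD and 0.196% with Cl-BBQ, so few calls are expected in short lists. An unadjusted p under 0.05 in limma was found for 8.69% and 7.91% of all genes. Of 10 AP-1 genes related to or pairing with Batf, 0 were called in either comparison with vehicle, and 0 had an unadjusted p under 0.05 in limma. The same held for 5 measured relatives of Maf and for the 3 PAR bZIP genes related to Nfil3 (Dbp, Tef and Hlf). Of 7 relatives of Irf4, Irf8 fell with TCDD (8.42 ± 0.10 against 8.96 ± 0.24; adjusted p = 0.0411), a factor best known from myeloid and B cells, and of 8 fits with 1 array left out, kept its call only without vehicle replicate 4 (adjusted p up to 0.168). Among the 7 relatives of Irf4, 1 had an unadjusted p under 0.05 in limma with TCDD and 2 with Cl-BBQ. In the family of Il10, the neighbouring genes Il19, Il20 and Il24 differed from vehicle by at most 0.09 and were not called.

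In the receptor arm, Socs3, a feedback inhibitor induced by STAT3, was 1.37-fold higher with TCDD (8.54 ± 0.05 against 8.09 ± 0.09; adjusted p = 0.0111) and the other 6 of 7 genes were not called. With Cl-BBQ 0 of these 7 were called. An unadjusted p under 0.05 in limma was found for 3 of the 7 with TCDD and 2 with Cl-BBQ. All genes gave 8.69% and 7.91% under that level, and 1.24% and 0.196% called. Il10ra, the ligand-binding receptor chain, was at 10.10 ± 0.16 with TCDD and 9.67 ± 0.24 with vehicle (adjusted p = 0.14). Of 7 measured genes known to be repressed by Blimp-1, Il2 fell (7.01 ± 0.20 against 7.5 ± 0.12; adjusted p = 0.0415) and 6 were not called. All 7 had a TCDD mean below vehicle, where 47.9% of all genes did, with a list median of −0.25. Of the 7, 2 had an unadjusted p under 0.05 in limma, where all genes gave 8.69%. With Cl-BBQ 0 were called, 2 of 7 were above vehicle and the median was −0.16, where 45.2% of all genes were below vehicle. An unadjusted p under 0.05 in limma was found for 2 of the 7 with Cl-BBQ. Myc was at 10.54 ± 0.10 with TCDD and 10.82 ± 0.12 with vehicle (adjusted p = 0.127), and Bcl6, the factor that opposes Blimp-1, at 9.23 ± 0.19 and 9.48 ± 0.20 (adjusted p = 0.648). Of the 8 fits with 1 array left out, Il2 kept its call only without TCDD replicate 4 (adjusted p up to 0.157 in the others).

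Of 13 co-inhibitory and Tr1 surface genes, 3 rose with TCDD and 1 fell. Havcr2, which encodes TIM-3, a receptor that dampens T cells, reached a fold of 2.86 (adjusted p = 0.0113), Itga2, the integrin chain CD49b that marks Tr1 cells, 2.59-fold (adjusted p = 0.000165) and Ctla4 1.26-fold (adjusted p = 0.00192). Havcr2 lost its call without TCDD replicate 3 (adjusted p = 0.0631). Cd226, which competes with TIGIT for ligand, fell to 10.15 ± 0.10, against 10.47 ± 0.10 with vehicle (adjusted p = 0.0476), and of 8 such fits kept its call only without vehicle replicate 3 (adjusted p up to 0.149). Lag3, another Tr1 marker, was at 9.47 ± 0.27 with TCDD and 9.36 ± 0.10 with vehicle (adjusted p = 0.917). With Cl-BBQ, Itga2 was the 1 called gene (1.84-fold, adjusted p = 0.0335), and it was not called without Cl-BBQ replicates 2 or 4 or vehicle replicates 1, 3 or 4. An unadjusted p under 0.05 in limma was found for 5 of the 13 with TCDD and 4 with Cl-BBQ, where all genes gave 8.69% and 7.91%. Of all genes, 1.24% were called with TCDD and 0.196% with Cl-BBQ. Of 16 other T cell cytokine genes, 0 rose, and Il2 and Lta fell with TCDD, Lta to 7.84 ± 0.06, against 8.26 ± 0.21 (adjusted p = 0.0303; of 8 fits with 1 array left out, called only without vehicle replicate 3, adjusted p up to 0.132). With Cl-BBQ 0 of these 16 were called. An unadjusted p under 0.05 in limma was found for 5 of the 16 with TCDD and 4 with Cl-BBQ. The highest log2 difference in the list with TCDD was 0.50, not called. Ifng was at 7.98 ± 0.41 with TCDD, 7.79 ± 0.25 with Cl-BBQ and 7.95 ± 0.43 with vehicle.

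**Figure D5:**
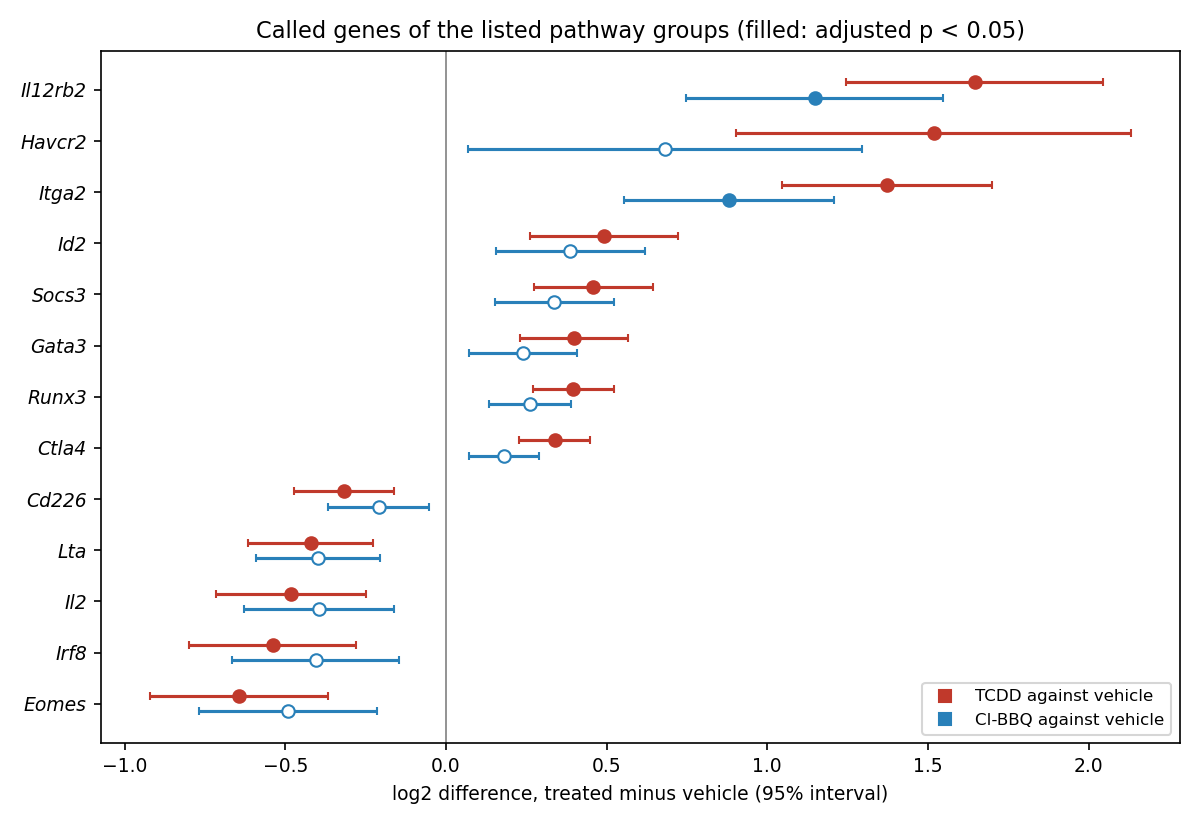
Log2 difference from vehicle (x axis) with its 95% interval for the genes of the pathway lists called in either comparison, ordered by the TCDD value. Filled points are calls, 13 with TCDD and 2 with Cl-BBQ (Il12rb2 and Itga2).

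The arrays carried T cell genes. The 9 measured genes of the CD4 T cell list were Cd4 and general T cell genes such as Cd3e. Their mean log2 intensity per array ran from 12.32 to 12.45 with TCDD. It ran from 12.27 to 12.48 with Cl-BBQ and from 12.33 to 12.40 with vehicle, and 0 of the 9 were called. This mean does not tell CD4 from CD8 T cells. B cells and myeloid cells can also make interleukin-10. The mean over 7 B cell markers ran from 6.45 to 6.61 with TCDD, 6.53 to 6.62 with Cl-BBQ and 6.56 to 6.79 with vehicle. In that list Cd22 fell with TCDD (7.11 ± 0.14 against 8.07 ± 0.40; adjusted p = 0.00364) and the other 6 were not called. The mean over 8 myeloid and dendritic markers ran from 6.52 to 6.63 with TCDD, 6.55 to 6.63 with Cl-BBQ and 6.53 to 6.55 with vehicle, with 0 called, as for 4 plasma cell, 4 NK cell and 2 CD8 T cell markers. The mean over the 2 CD8 T cell markers was higher, from 8.37 to 8.70 with TCDD, 8.32 to 8.54 with Cl-BBQ and 8.36 to 9.18 with vehicle. The mean over 5 regulatory T cell markers ran from 9.54 to 9.79 with TCDD, 9.30 to 9.56 with Cl-BBQ and 9.41 to 9.49 with vehicle. The TCDD and vehicle arrays did not overlap in this mean, and shares of single genes cannot be set beside a mean of 5 genes. The mean includes Itgae, whose log2 difference of 0.84 with TCDD was the highest of the list. The lowest of the 12 arrays in this mean was Cl-BBQ replicate 4, on which Il10 was also lowest. That array was also the highest of its group in the means over CD4 T cell, CD8 T cell, B cell and NK cell markers. It was the lowest of its group for plasma cell markers. In the regulatory T cell list Itgae, the integrin chain CD103, rose 1.78-fold with TCDD (adjusted p = 0.00606). The other 4 genes were not called with TCDD, and the list median was 0.16. Foxp3 was at 8.11 ± 0.12 with TCDD, 7.90 ± 0.16 with Cl-BBQ and 8.05 ± 0.12 with vehicle and was not called. The part of these markers in the Il10 result was not tested. In RNA of sorted populations, a change in the number of cells that express a gene and a change in RNA per cell cannot be told apart.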

How the data were processed

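RNA of 12 sorted cell samples was hybridised to 12 mouse gene arrays. The probe table is that of a whole-transcript array, while the labels' protocol describes oligo-dT primed labelling with a kit for 3′ arrays, and the sources used here do not settle which applies. The deposited values are log2 intensities made by the authors with robust multi-array average (RMA), per the submitters' processing notes; the log2 scale was read from the values (2.49 to 14.2, array medians 7.11 to 7.24), and the software version is not given in the sources used here. Of 35556 probe sets, 21789 carried 1 gene symbol, 1621 several and 12146 none in the probe table; 999 genes had more than 1, and the probe set with the highest mean was kept. No filter on dim genes was applied. Precision is limited by the number of arrays.

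One limma 3.58.1 model (R 4.3.3) held the 3 groups, without a block, with 9 residual degrees of freedom and an intensity trend, two-sided, with Benjamini-Hochberg adjustment over 19938 genes. Figures were drawn with matplotlib 3.10.9. Pathway and marker lists, 18 in number, name up to 4 called genes each, and any called marker; the 5 closest profiles were named for Il10 and Prdm1. Uncalled genes given with values were chosen after their values were seen, and members and lists were chosen with earlier results of these data known. Listed genes that lack a single-symbol probe set were not analysed here.

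No label ties a replicate number to a common litter or day. Deviations from the group means correlated over 0.1 in all 4 same-numbered pairs of TCDD and Cl-BBQ arrays (0.113 to 0.606), in 2 of 4 of TCDD and vehicle and in 0 of 4 of Cl-BBQ and vehicle. Labels call the arrays biological replicates, 4 mice per group.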

Additional observations from a re-analysis of the deposited data

Results flagged for a closer look

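In a group of 4 arrays, a value was marked where its gap to the nearest other array was, relative to the group's range, above Dixon's 95% critical value, which chance alone exceeds in about 1 of 20 groups. Of 87 groups (29 named genes, 3 groups each) 7 were marked, 2 of them in the 6 genes described first. Il10 on Cl-BBQ replicate 4 was at 8.15, where the other 3 Cl-BBQ arrays were at 9.11 to 9.17. Nfil3 on the same array was at 9.0, where the other 3 were at 9.18 to 9.21. Irf8 on Cl-BBQ replicate 3 was at 8.90 (others 8.41 to 8.47) and Cd22 on the same array at 7.77 (others 7.31 to 7.38). Il2 was at 6.79 on Cl-BBQ replicate 1 (others 7.18 to 7.24) and at 7.68 on vehicle replicate 4 (others 7.42 to 7.44). Mlkl was at 8.08 on vehicle replicate 3 (others 8.51 to 8.57).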

How the results depend on the processing

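Each comparison was refitted under 17 alternatives, 8 of which left out 1 array. With TCDD against vehicle, Prdm1 was called in all 17 and Il10 in 16: its difference was 1.08 with all probe sets tested singly, where it was not called (adjusted p = 0.0575), and 0.99 to 1.18 with 1 array left out (adjusted p up to 0.048). Nfil3 was called in 12 of 17, and 2 to 3 of the 6 genes were called throughout. With Cl-BBQ against vehicle, 0 of 6 were called in 16 fits and 1, Prdm1, without Cl-BBQ replicate 4; over the fits with 1 array left out the count ran from 0 to 1 and the Il10 difference from 0.31 to 0.64. With TCDD against Cl-BBQ, 0 were called in all 17; the Batf difference, −0.03 with all arrays, ran from −0.080 to 0.044 with 1 array left out and was 0.044, the other sign, without Cl-BBQ replicate 4. With the replicate number as a block, no call of the 6 genes changed: the Il10 difference from vehicle stayed 1.08 with TCDD (adjusted p = 0.0027) and 0.40 with Cl-BBQ (adjusted p = 0.494), and TCDD against Cl-BBQ was 0.68 (adjusted p = 0.709). Calls over all genes were 247, 39 and 3 and ran over the alternatives from 150 to 397, 0 to 111 and 0 to 9, with 397, 111 and 5 under the block. Testing all probe sets singly also ended the TCDD calls of Eomes, Id2, Irf8, Il2, Havcr2, Cd226, Lta and Gcnt1 and the Cl-BBQ calls of Il12rb2, Itga2, Emp1 and Mlkl. Median centring ended those of Id2, Gata3, Il2 and Cd226 with TCDD and of Itga2 and Mlkl with Cl-BBQ, quantile normalization those of Irf8 and Il2, and a fit with no intensity trend those of Il2 and Cd226 with TCDD and Itga2 with Cl-BBQ. Fitting only the groups compared ended those of Il12rb2 and Mlkl with Cl-BBQ. Array number limits what small differences such as those of Maf, Batf and Irf4 can show.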
